A study of Mus musculus with 4 samples.

Results

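The genes described here are 9 members of the claudin family, Cldn1, Cldn3, Cldn4, Cldn6, Cldn7, Cldn8, Cldn9, Cldn10 and Cldn23, out of 21887 protein-coding mouse genes counted. The list was chosen by name and in part selected on the high accessibility of Cldn6 and Cldn9 in fetal nuclei, which was known when it was drawn up. The stage values of Cldn6, Cldn9 and the regions within 25000 bases of either are therefore given as a description with no test, and the other 7 genes were tested. Of the 9 genes, 8 had a promoter region in the deposited list of 19204, and 76 of the 145453 deposited distal regions lay within 25000 bases of a listed gene. Cldn10 had no promoter region in that list.

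The assay was ATAC-seq of single nuclei, in which the Tn5 transposase cuts and tags open DNA and barcodes mark the reads of each nucleus. The nuclei came from wild-type CD1 mice, an outbred strain, and from mammary cells sorted as positive for the epithelial surface protein EpCAM and negative for lineage markers of other cells. The fetal group was taken at embryonic day 18 and the adult group at 8 weeks, with 2 libraries labelled as biological replicates in each. No allele or treatment was named for either group, and the labels did not say how many animals or litters a replicate held, so p-values measure the spread between these libraries. By its title the series concerns cell-state regulators and lineage relationships in mammary development, and fetal nuclei are compared with adult nuclei here.

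Claudins are membrane proteins that join neighbouring epithelial cells in tight junctions. The mixture of claudins in a junction sets which ions and solutes can leak between cells, some members sealing the gap and others forming selective pores. In the mammary gland, tight junctions lie between luminal cells at the duct lumen, whereas the outer basal layer is contractile and faces the basement membrane.

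The promoter sequences of 4 members are shown because the results turn on them: Cldn3 and Cldn4 are neighbours with a high deposited co-accessibility score between their promoters, Cldn6 is one of the pair higher in fetal libraries, and Cldn10 has 2 annotated starts that differ in base composition. Each runs from 250 bases before to 50 bases after the annotated start in RefSeq, build GRCm38.p6, and capitals mark a match to the AP-1 motif TGANTCA or to the SP and KLF motif GGGCGGGG on either strand.
Cldn3, chr5:134985964-134986263, plus strand: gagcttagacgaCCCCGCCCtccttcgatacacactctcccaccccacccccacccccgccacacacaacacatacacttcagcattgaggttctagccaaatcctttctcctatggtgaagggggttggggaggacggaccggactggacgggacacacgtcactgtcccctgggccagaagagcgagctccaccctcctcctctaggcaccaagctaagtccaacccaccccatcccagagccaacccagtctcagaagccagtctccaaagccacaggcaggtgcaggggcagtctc
Cldn4, chr5:134946885-134947184, minus strand: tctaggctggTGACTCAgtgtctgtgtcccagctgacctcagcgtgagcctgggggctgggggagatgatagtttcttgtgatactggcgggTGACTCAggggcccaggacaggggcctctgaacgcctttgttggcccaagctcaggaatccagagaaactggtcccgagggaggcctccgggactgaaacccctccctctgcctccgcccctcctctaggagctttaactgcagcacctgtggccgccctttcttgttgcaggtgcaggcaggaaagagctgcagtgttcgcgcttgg
Cldn6, chr17:23679115-23679414, plus strand: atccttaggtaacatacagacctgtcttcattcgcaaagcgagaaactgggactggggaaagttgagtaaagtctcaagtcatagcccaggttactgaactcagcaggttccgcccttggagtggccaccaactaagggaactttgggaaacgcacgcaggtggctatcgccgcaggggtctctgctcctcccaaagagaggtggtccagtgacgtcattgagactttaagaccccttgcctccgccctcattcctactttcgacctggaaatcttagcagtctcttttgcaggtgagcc
Cldn10 first start, chr14:118787621-118787920, plus strand: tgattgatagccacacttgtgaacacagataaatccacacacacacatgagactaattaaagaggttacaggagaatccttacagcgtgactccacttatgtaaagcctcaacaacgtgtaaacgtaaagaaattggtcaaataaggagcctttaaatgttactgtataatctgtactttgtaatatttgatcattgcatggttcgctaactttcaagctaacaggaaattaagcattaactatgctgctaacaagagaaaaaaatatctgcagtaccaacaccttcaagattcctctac
Cldn10 second start, chr14:118854700-118854999, plus strand: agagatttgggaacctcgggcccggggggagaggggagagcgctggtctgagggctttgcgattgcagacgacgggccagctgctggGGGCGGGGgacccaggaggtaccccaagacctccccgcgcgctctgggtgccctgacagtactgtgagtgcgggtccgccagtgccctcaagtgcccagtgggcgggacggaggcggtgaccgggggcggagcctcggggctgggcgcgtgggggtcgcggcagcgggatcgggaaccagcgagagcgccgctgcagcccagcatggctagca
The Cldn4 window held 2 AP-1 matches, whose first bases lie at -240 and -158 from the start, and 7.81% of 32851 promoter windows of this length held at least 1. The Cldn3 window held an SP and KLF match at -238 and the second Cldn10 window held one at -163, against 17.6% of all windows. Other motifs were searched and are not capitalised. A SOX match (ACAAAG or ACAATG) lay at -123 in the Cldn4 window and at -74 in the first Cldn10 window, against 28.6% of all windows. An AP-2 match (GCCNNNGGC) lay at +24 in the Cldn3 window, against 16.6%. The GRHL, NFI, FOXA, ETS and TATA box motifs had no match in the windows shown. The window at the first Cldn10 start was 36% G or C and the window at the second was 72%, beside a median of 52.7% over all windows. Neither capitalised motif was present in the Cldn6 window, which says only that these letters are not there.

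The 14 classes into which the authors sorted the nuclei carry numbers and no names, and nearly every class came from 1 stage. Markers of the basal layer, such as Krt5, Krt14 and Acta2, were raised for 8 of 8 genes in adult classes 1 and 8 and for 6 of 8 in fetal class 4 and adult class 14. Luminal keratins and Epcam were raised for 4 of 4 genes in adult classes 2, 3, 7 and 10 and for 3 of 4 in fetal class 9 and adult class 11. Luminal progenitor genes such as Kit and Elf5 were raised for 5 of 6 in class 3, 4 of 6 in class 7 and 3 of 6 in classes 9 and 10. Mature luminal genes such as Esr1, Pgr and Prlr were raised for 5 of 6 in adult classes 2, 11 and 14 and for 3 of 6 in class 10, so class 14 carried basal and mature luminal markers together. Class 6 had 6 of 6 stromal markers raised and held nuclei of both stages. Raised means at least 0.5 above the mean of the other classes in log2(CPM + 2).

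The 4 libraries held 882 to 2804 nuclei and 6028168 to 19304830 reads, and 0 barcodes were shared between libraries. Summed over the gene spans of the 6 mature luminal markers, CPM was 379 and 429 for the fetal replicates against 744 and 796 for the adult replicates. The 4 luminal markers also summed to less in fetal libraries, with 310 and 326 against 466 and 399, and the 6 stromal markers to more, with 175 and 181 against 137 and 142. The immune list stood at 45.8 and 48.1 against 39.5 and 43.8, and the basal, luminal progenitor, endothelial and epidermal lists overlapped between the stages. None of the markers was at 0. A library sum cannot tell more nuclei with an open region from a region more open in each nucleus.

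Across the whole gene, with 2000 bases added on each side, 1 of the 7 tested claudins differed between the stages. Cldn10, whose alternative first exons give pore-forming proteins with different ion preference, was lower in fetal libraries. Over all 18808 genes tested, 22.2% were called in either direction, 11.3% as higher and 10.9% as lower in fetal. Levels are CPM, counts-per-million of the reads in gene spans after TMM scaling, and a call is a Benjamini-Hochberg adjusted p under 0.05 from edgeR's quasi-likelihood test. The median log2 difference, fetal minus adult, was -0.18 for the 7 claudins and 0.01 for all genes.

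Cldn10 stood at 84.9 and 83.8 CPM in fetal replicates 1 and 2 and at 113 and 121 CPM in adult replicates 1 and 2. The stages did not overlap, with means of 84.4 ± 0.726 and 117 ± 5.26 (SD, n = 2). The log2 difference was -0.48 (SE 0.11, adjusted p = 0.0079 by edgeR). The call was lost without fetal replicate 1 (adjusted p = 0.0533) and without fetal replicate 2 (adjusted p = 0.0905), while the log2 difference stayed at -0.48 and -0.47. The padded span also takes in part of Dzip1, and the mature luminal marker sums moved in the same direction as Cldn10, a relation whose part in the result was not tested.

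Cldn8 and Cldn23 were also lower in both fetal libraries than in both adult libraries, but neither passed the threshold. Cldn8, known from the distal kidney tubule where it acts with Cldn4, gave 38.9 and 28.6 CPM in fetal and 44.1 and 45.8 CPM in adult libraries. Its log2 difference was -0.44 (SE 0.16, adjusted p = 0.0629 by edgeR), and it passed the threshold without fetal replicate 1 (0.0264) or adult replicate 1 (0.0376), with no filter (0.0462), with every barcode (0.0483) and with no bases added (0.0173). Cldn23, found in the surface epithelium of the intestine, gave 61.2 and 46.4 CPM against 71.9 and 61.5 CPM. Its log2 difference was -0.33 (SE 0.15, adjusted p = 0.134 by edgeR), and it passed with no bases added (0.0366) and without adult replicate 2 (0.0125), the adult library within 1 CPM of fetal replicate 1. Thus 3 of the 7 tested genes had stages that did not overlap, all with fetal below adult, where 61.0% of all genes tested did not overlap, 31.4% with fetal above and 29.6% with fetal below.

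The other 4 tested claudins overlapped between the stages. Cldn3 and Cldn4, barrier claudins of simple epithelia and receptors of a clostridial enterotoxin, had log2 differences of -0.11 (adjusted p = 0.555) and 0.07 (adjusted p = 0.747 by edgeR). Cldn3 ranged from 85.7 to 105 CPM and Cldn4 from 60.9 to 75.8 CPM over the 4 libraries. Cldn7, which binds EpCAM, ranged from 32.4 to 46.2 CPM. Cldn1, the barrier claudin of the epidermis, had its lowest and its highest value within the fetal group, at 27.5 and 46.3 CPM, against 36.7 and 31.8 CPM in adult libraries. Per kilobase of padded span, the fetal mean was highest for Cldn3 at 17.2 CPM per kb, followed by Cldn4 at 12.2, and lowest for Cldn10 at 0.931.

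Cldn6, a claudin of embryonic epithelia and pluripotent cells, and Cldn9, known from the inner ear, had the highest fetal values relative to adult among the listed genes. Cldn6 gave 77.8 and 57.5 CPM in fetal and 40.9 and 39.6 CPM in adult libraries, a log2 difference of 0.73. Cldn9 gave 50.1 and 37.1 CPM against 23.9 and 23.2 CPM, a log2 difference of 0.86. Both fetal libraries lay above both adult libraries in each gene. The genes are neighbours on chromosome 17 (Cldn6 at chr17:23679348-23682446 and Cldn9 at chr17:23682584-23684026), so their padded spans share reads, and that of Cldn6 also overlaps Tnfrsf12a. These values entered the choice of the genes and are not tested.

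**Figure D1:**
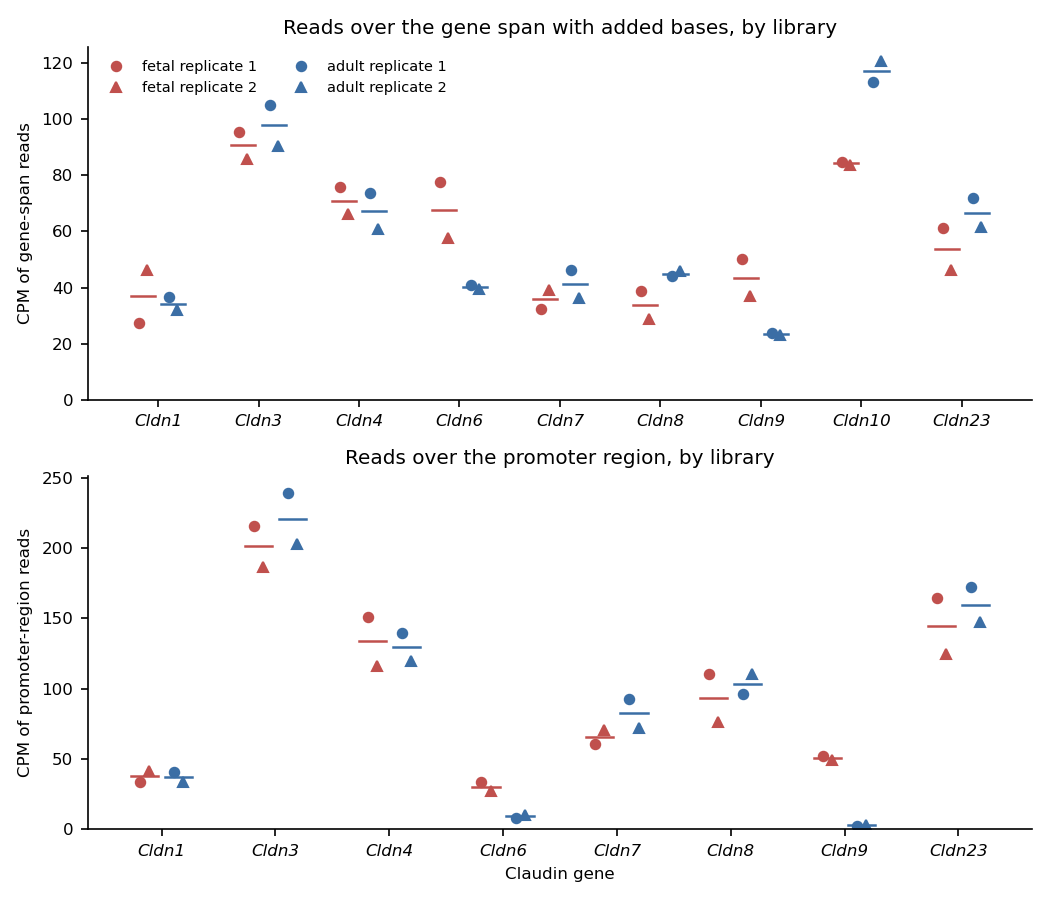
Reads over the padded gene span (upper panel) and over the promoter region (lower panel) of each claudin, in CPM of that kind of feature; points are libraries and short lines are stage means. In the lower panel the fetal points of Cldn9 lie at 52.1 and 49.4 CPM and the adult points at 2.12 and 3.06 CPM.

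At promoter regions, which are 1000 bases wide, none of the 6 tested claudins differed between the stages. A region taken for a gene holds or adjoins its annotated start. For Cldn8, Cldn9 and Cldn23 the strand was not given, so a region at either end of the gene was taken. Over all 18570 promoter regions tested, 21.5% were called, 10.5% as higher and 11.0% as lower in fetal libraries. The count of 0 held at an unadjusted p under 0.05 in edgeR and with DESeq2. CPM at promoters are relative to reads in promoter regions and cannot be set against CPM of gene spans. The log2 differences ran from -0.31 for Cldn7 to 0.05 for Cldn1.

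Cldn3 had the highest promoter level of the 8, at 216 and 187 CPM in fetal and 239 and 203 CPM in adult libraries. Its stages overlapped, with a log2 difference of -0.15 (adjusted p = 0.399 by edgeR). Cldn23 followed with 165 and 125 CPM against 172 and 147 CPM, and Cldn4 with 151 and 116 CPM against 140 and 120 CPM, both overlapping. Cldn7, at 60.3 and 70.3 CPM in fetal and 92.7 and 72.3 CPM in adult libraries, was the one tested promoter whose stages did not overlap, and its adjusted p was 0.189. For comparison, 59.7% of all promoter regions tested did not overlap, 29.4% with fetal above and 30.3% with fetal below. The promoter of Cldn8 spanned 76.3 to 110 CPM and that of Cldn1 33.6 to 41.7 CPM.

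The promoter regions of Cldn9 and Cldn6 gave a wider gap between the stages than their gene spans. At Cldn9 (chr17:23683980-23684979) 76 and 174 fetal reads stood against 7 and 13 adult reads, or 52.1 and 49.4 CPM against 2.12 and 3.06 CPM. The log2 difference was 4.24, with means of 50.7 ± 1.94 and 2.59 ± 0.666 CPM (SD, n = 2). At Cldn6 (chr17:23678999-23679998) the libraries gave 33.6 and 26.9 CPM against 7.87 and 10.1 CPM, a log2 difference of 1.71. Both fetal libraries were above both adult libraries at each promoter.

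The pattern around these promoter regions was not uniform. A further region of the promoter list, inside Cldn6 (chr17:23680666-23681665), gave 80.9 and 47.1 CPM in fetal and 65.4 and 65.5 CPM in adult libraries, which overlapped. A region just below the Cldn9 promoter in coordinate (chr17:23682917-23683916) gave 8.23 and 9.08 CPM against 1.51 and 2.35 CPM, with fetal above adult. Of the 9 distal regions near Cldn6, 1 stood furthest from the rest: chr17:23697921-23698920, between genes, with 25.2 and 27.3 CPM in fetal and 4.92 and 3.54 CPM in adult libraries. Its log2 difference was 2.66, and those of the other 8 ran from -0.62 to 1.23. Thus the high fetal values around the pair lay at some regions and not at others, and the region at chr17:23694023-23695022 lay lower in both fetal libraries (17.5 and 17.3 CPM) than in both adult libraries (29.4 and 24.2 CPM).

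**Figure D2:**
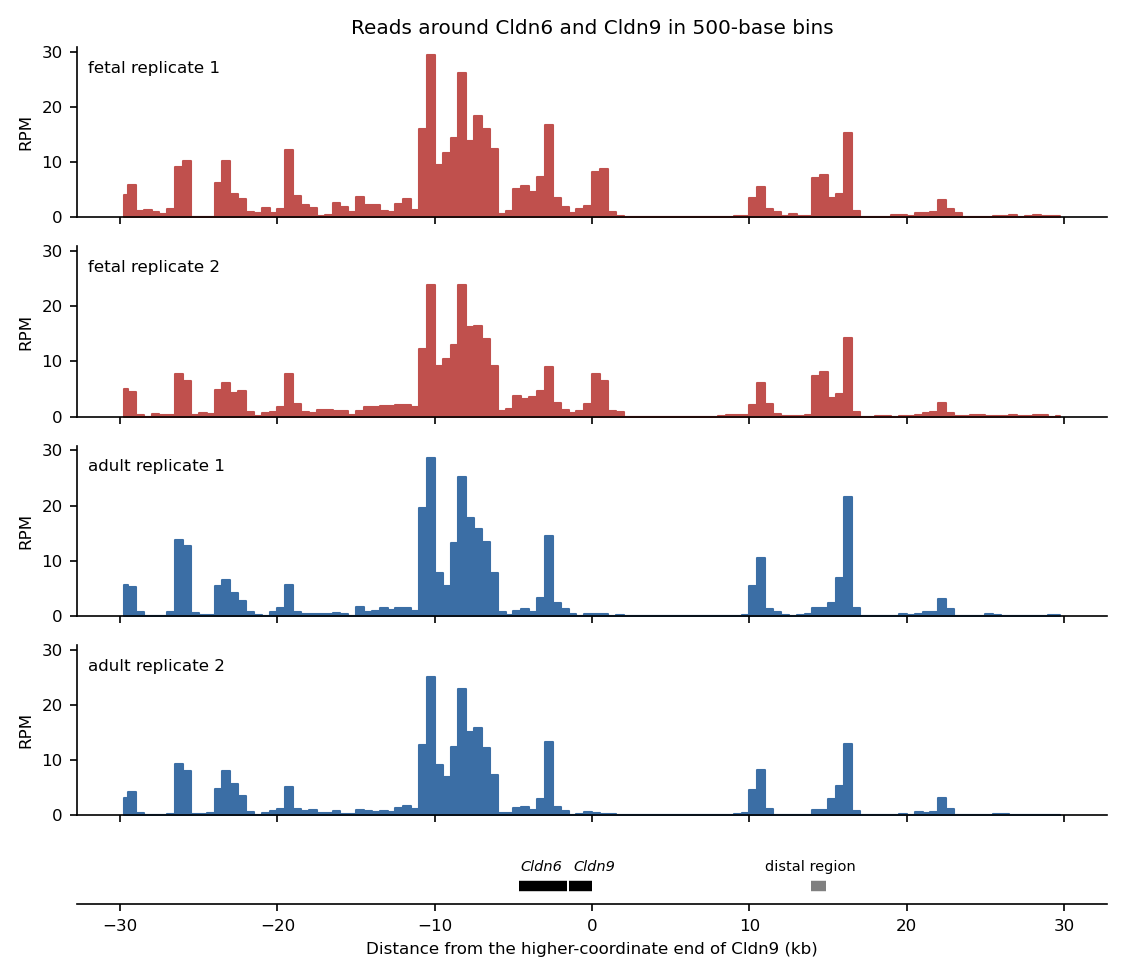
RPM (reads-per-million of listed reads) in 500-base bins around Cldn6 and Cldn9, 1 row per library on a common scale, against distance in kb from the higher-coordinate end of Cldn9; black bars are the genes and the grey bar is the distal region with a log2 difference of 2.66. Signal at the Cldn9 promoter and at the grey bar is seen in both fetal rows and is low in both adult rows, while the peak lying left of both genes is present in all 4.

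Distal regions near the claudins were called in both directions. Of 67 distal regions near the 7 tested claudins, 61 had enough reads to test, and 7 were higher and 18 lower in fetal libraries by edgeR. Over all 122865 distal regions tested, 35.3% were called, 16.6% as higher and 18.8% as lower. With DESeq2 the counts near the claudins were 1 and 13, beside 10847 higher and 14025 lower of all 122865. Without fetal replicate 2, adult replicate 1 or adult replicate 2 the 7 called higher became 3, 4 and 3. The stages did not overlap at most of the 61, with fetal above at 20 and below at 25, against 68.5% of all distal regions, 33.2% above and 35.2% below. In 1 of the 7 called higher and 9 of the 18 called lower, the stage with the lower level had a mean under 10 reads, so those regions were tested through the other stage, where they are high. The median log2 difference was -0.14 for the 61 regions and -0.01 for all regions. CPM here are relative to reads in distal regions.

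Cldn10 has a padded span of 90655 bases, against 5263 to 19195 for the other members, so its search window was wider. It held the largest number of tested distal regions, 21, of which 4 were higher and 7 lower in fetal libraries. Over all distal regions tested, 16.6% were called higher and 18.8% lower. The region with the largest difference lay inside the gene, at chr14:118868993-118869992, with 1 and 7 fetal reads against 138 and 220 adult reads. These are 0.428 and 1.13 CPM against 25.2 and 28.8 CPM, a log2 difference of -4.84 (SE 0.44, adjusted p = 3.57e-11 by edgeR). All libraries of one stage were far below those of the other. Further regions inside Cldn10 fell with it: chr14:118858568-118859567 by 4.16 on the log2 scale, chr14:118855825-118856824 by 3.44 and chr14:118841181-118842180 by 2.95. Their adjusted p-values were 5.16e-06, 3.59e-06 and 3e-06. The first had 2 and 2 fetal reads against 58 and 57 adult reads, the second 0 and 10 against 64 and 98, and the third 4 and 11 against 63 and 121. Like the region with the largest difference, they had a fetal mean under 10 reads and were tested through the adult libraries, where they are high.

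Other regions of Cldn10 lay in the opposite direction. The region chr14:118833972-118834971 gave 8.98 and 5.49 CPM in fetal and 0.547 and 0.786 CPM in adult libraries, a log2 difference of 3.32 (adjusted p = 0.000159 by edgeR). Its reads were 21 and 34 against 3 and 6, so it reached the read minimum through the fetal libraries alone. The region chr14:118835758-118836757 gave 18 and 18.1 CPM against 10.4 and 7.07 CPM, a log2 difference of 1.06 (adjusted p = 0.00744), a call that was lost with DESeq2 (0.0881) and without adult replicate 2 (0.184). Cldn10 thus held regions called in both directions by edgeR. Of those called higher, chr14:118833972-118834971, tested through the fetal libraries alone, was the only region to keep its call with DESeq2. The calls of chr14:118826939-118827938 (0.202) and chr14:118843243-118844242 (0.0914) were lost with DESeq2. Among those called lower, chr14:118774614-118775613 lost its call with DESeq2 (0.0874). The second annotated start of Cldn10, at base 118854950, fell in a region of the distal list, chr14:118854385-118855384, which gave 21.4 and 15.3 CPM in fetal and 28.5 and 38.1 CPM in adult libraries. Its log2 difference was -0.91 (SE 0.25, adjusted p = 0.00381), and without fetal replicate 2 it was -0.59 with an adjusted p of 0.151.

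Near Cldn3 and Cldn4, which lie 39012 bases apart by their promoter regions, 11 distal regions were tested for each gene, and 1 of those near both was called. The largest fall near Cldn3 was at chr5:134996199-134997198, with 0.856 and 1.29 CPM in fetal and 9.67 and 9.30 CPM in adult libraries (log2 difference -3.01, adjusted p = 3.19e-05 by edgeR). The largest fall near Cldn4 was at chr5:134956825-134957824, with 6.85 and 4.2 CPM against 27.5 and 17.5 CPM (log2 difference -2.12, adjusted p = 6.56e-06). The region near Cldn4 kept its call in each alternative run. That near Cldn3 had 2 and 8 fetal reads against 53 and 71 adult reads, so it reached the read minimum through the adult libraries alone, where it is high. It kept its call in each alternative in which it was tested, and was not tested with a mean of at least 50 reads. The region near both genes, chr5:134970228-134971227, was higher in fetal libraries, with a log2 difference of 1.19 (adjusted p = 0.0028), and lost its call without fetal replicate 2 (0.0991), without adult replicate 2 (0.0757) and with DESeq2 (0.0575). The region between the genes with the most reads, chr5:134966357-134967356, overlapped between stages at 62.8 to 78.2 CPM. Near Cldn3, 2 regions were called higher and 2 lower, and near Cldn4, 2 higher and 4 lower, beside 16.6% and 18.8% of all distal regions tested. With DESeq2 the higher regions chr5:135000853-135001852 (0.144) and chr5:134952427-134953426 (0.222) lost their calls, as did the lower region chr5:134935775-134936774 (0.132). In edgeR chr5:135000853-135001852 also lost its call with total reads in place of TMM (0.0692), and chr5:134952427-134953426 with a replicate block (0.0527).

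The remaining members had shorter spans than Cldn10 and fewer regions nearby. Their counts of calls stand beside 35.3% of all distal regions tested, 16.6% called higher and 18.8% lower. The one called region near Cldn7 had its midpoint at -3048 bases from the gene start, at chr11:69961232-69962231, with 12.4 and 9.04 CPM in fetal and 36.5 and 26.1 CPM in adult libraries. Its log2 difference was -1.59 (SE 0.28, adjusted p = 1.85e-05 by edgeR), and it also had the most reads of the regions near Cldn7. Near Cldn23, 2 of 5 tested regions were called, both lower in fetal libraries, led by chr8:35830341-35831340 with 2.57 and 2.42 CPM against 10.4 and 8.64 CPM (log2 difference -1.93, adjusted p = 0.00132). Near Cldn8, 2 of 7 were called, both lower and both reaching the read minimum through the adult libraries alone. The one at chr16:88539657-88540656 had 2 and 12 fetal reads against 29 and 37 adult reads. Its log2 difference was -1.68 (adjusted p = 0.0324 by edgeR), and its call was lost with DESeq2 (0.149). Without fetal replicate 1 the log2 difference was -1.37. The one overlapping the gene, chr16:88559983-88560982, had 4 and 6 against 36 and 30, with a log2 difference of -2.07 (adjusted p = 0.014 by edgeR). That call was lost without fetal replicate 2 (0.14), without adult replicate 1 (0.25) and with DESeq2 (0.0921). Near Cldn1, none of 4 tested regions was called.

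**Figure D3:**
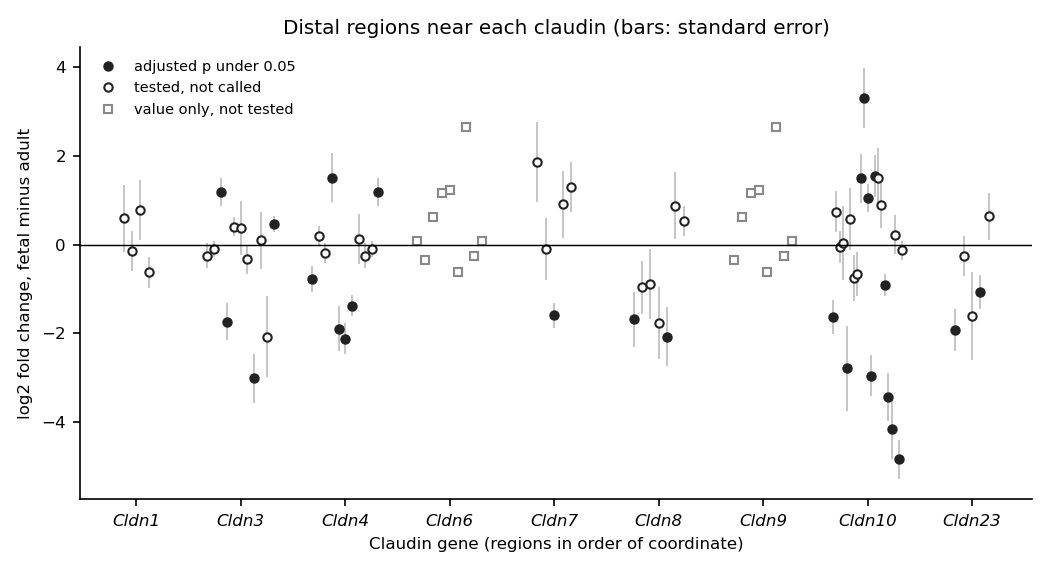
Log2 fold change, fetal minus adult, of each distal region near each claudin, in order of coordinate. Filled circles had an adjusted p under 0.05 by edgeR, open circles did not, and grey squares were not tested. Bars are the value called SE, the absolute log2 change over the square root of F, which is not an SE of the fit. Cldn10 has the widest spread, from -4.84 to 3.32, and the highest grey square, at 2.66, is the region near Cldn6 and Cldn9.

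By class, the claudins followed 3 main patterns, given here as a description because the classes were made from the same nuclei. The promoters of Cldn3, Cldn4, Cldn7 and Cldn8 were higher in classes 2, 9, 10 and 11, with luminal markers raised, than in basal-marker classes 1 and 8 and stromal-marker class 6. Luminal-marker classes 3 and 7 and fetal classes 5, 12 and 13 also lay above classes 1, 8 and 6 at all 4 promoters. Class 12 had 0 of 4 luminal and 3 of 8 basal markers raised, so the pattern was not particular to classes with luminal markers raised. Class 4 lay below class 8 at Cldn8, and class 14 lay below class 1 at Cldn4. For Cldn3 the promoter gave 277 CPM in class 2, 286 in class 7, 277 in class 9 and 285 in class 10. The same promoter gave 31.1 CPM in class 1, 8.14 in class 8 and 27.6 in class 6. Fetal class 4, with basal markers, stood at 43.5 CPM.

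The Cldn4 promoter gave 209 CPM in class 10, 177 in class 2 and 157 in class 9, and 8.14 CPM in class 8 and 0 in class 6. In fetal class 4 it stood at 120 CPM, above the 68.9 CPM of class 1, the 8.14 CPM of class 8 and the 95.7 CPM of luminal-marker class 3. For Cldn7 the highest class was 13, at 133 CPM, followed by class 2 at 115, with 12.2 CPM in class 1 and 4.07 in class 8. Class 13 had 1 of 4 luminal markers raised, and luminal-marker class 3, at 46.7 CPM, lay below class 14, at 87.3 CPM, in which basal and mature luminal markers were both raised. For Cldn8 the highest was class 11, at 172 CPM, followed by class 2 at 145, and class 7, at 64.8 CPM, stood lower than class 3, at 118 CPM, and class 14, at 92.8 CPM.

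Cldn1 showed the second pattern, in which over the gene span classes 3, 7 and 9, with luminal progenitor markers raised, were higher than classes 2 and 11, with mature luminal markers raised. Over the gene span, class 3 gave 76.0 CPM (exact Poisson 95% interval 66.5 to 86.5, which covers counting error only) and class 7 gave 72.2 CPM. Class 9 stood next at 55.5 CPM, and mature luminal classes 2 and 11 at 14.4 and 14.9 CPM. At the Cldn1 promoter, classes 4 and 8 were highest, at 64.6 and 59 CPM, while basal class 1 gave 14.9 CPM, less than classes 11 and 2 at 30.5 and 24.8 CPM. Adult basal classes 1 and 8 thus differed in the Cldn1 promoter, and in the opposite order in the promoters of Cldn3 and Cldn4. The class 8 values of Cldn3 and Cldn4 lie near the floor and rest on few reads.

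Cldn9 and Cldn6 showed the third pattern. The Cldn9 promoter gave 99.99 CPM in fetal class 5 (97 reads, interval 81.1 to 122) and 51.0 CPM in fetal class 9 (113 reads, interval 42.0 to 61.3). In class 5 the 2 fetal libraries gave 106 and 97.4 CPM, and in class 9 they gave 43.4 and 55.4 CPM. Fetal classes 12, 4 and 13 followed at 25.4, 24.8 and 18.3 CPM. In adult classes 1 and 7 the Cldn9 promoter had no read, which allows up to 2.39 CPM in class 7, and class 2 gave 0.869 CPM. The highest value in a mainly adult class was 10.9 CPM, in class 14, a class of 85 nuclei. The Cldn6 promoter was also highest in classes 9 and 5, at 37.9 and 32.0 CPM, followed by class 13 at 27.5 CPM and by mainly adult classes 14 and 11 at 27.3 and 21.5 CPM. The distal region at chr17:23697921-23698920 near Cldn6 and Cldn9 was likewise highest in class 5, at 48.0 CPM, and class 9, at 30.6 CPM, with 0.986 CPM in class 2.

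Cldn23 had the smallest ratio of highest to lowest class among the 8 promoters. It lay between 112 and 209 CPM in every class except class 6, at 49.6 CPM, and class 12, at 95.1 CPM. The highest were class 10 at 209 CPM and class 14 at 196 CPM, and basal class 1 and mature luminal class 2 stood at the same 139 CPM. The most changed region near Cldn23, chr8:35830341-35831340, was more uneven, with 42.4 CPM in class 3, 16.2 in class 7, 3.29 in class 9 and 1.48 in class 2.

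**Figure D4:**
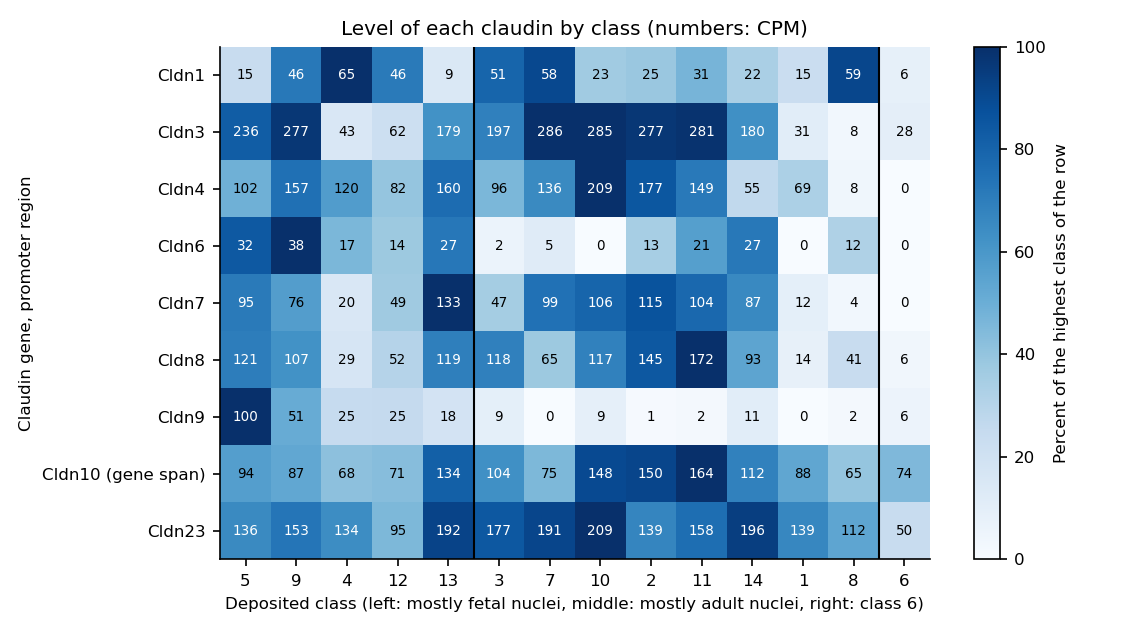
CPM of each claudin's promoter region (gene span for Cldn10) in each deposited class; shading is the percentage of the highest class in the row, numbers are CPM, and vertical lines separate mostly fetal classes, mostly adult classes and class 6. Cldn3, Cldn4, Cldn7 and Cldn8 are pale in classes 1, 8 and 6, and Cldn9 is dark in classes 5 and 9.

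For Cldn10 the classes differed more by region than over the whole gene. Over the gene span the levels ran from 65.4 CPM in class 8 to 164 CPM in class 11, with 150 in class 2. The region chr14:118868993-118869992 gave 57.2 CPM in mature luminal class 2 (232 reads), 49.7 in class 11 and 35.4 in class 14. The same region had 0 reads in class 3 and in class 9, which allows up to 2.23 and 0.933 CPM, and 0.831 CPM in class 7. The region chr14:118835758-118836757 had the opposite order, with 24.2 CPM in class 3, 21.2 in class 7 and 21.3 in class 9 against 0.986 in class 2 and 1.1 in class 11. The region with the second Cldn10 start gave 59.2 CPM in class 10, 54.7 in class 11, 43.9 in class 2 and 43.1 in basal class 1, and 10.8 to 15.4 CPM in classes 3, 7 and 9. Fetal nuclei of class 2 numbered 1 and 2 in the 2 fetal libraries, and the adult libraries held 805 and 714.

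**Figure D5:**
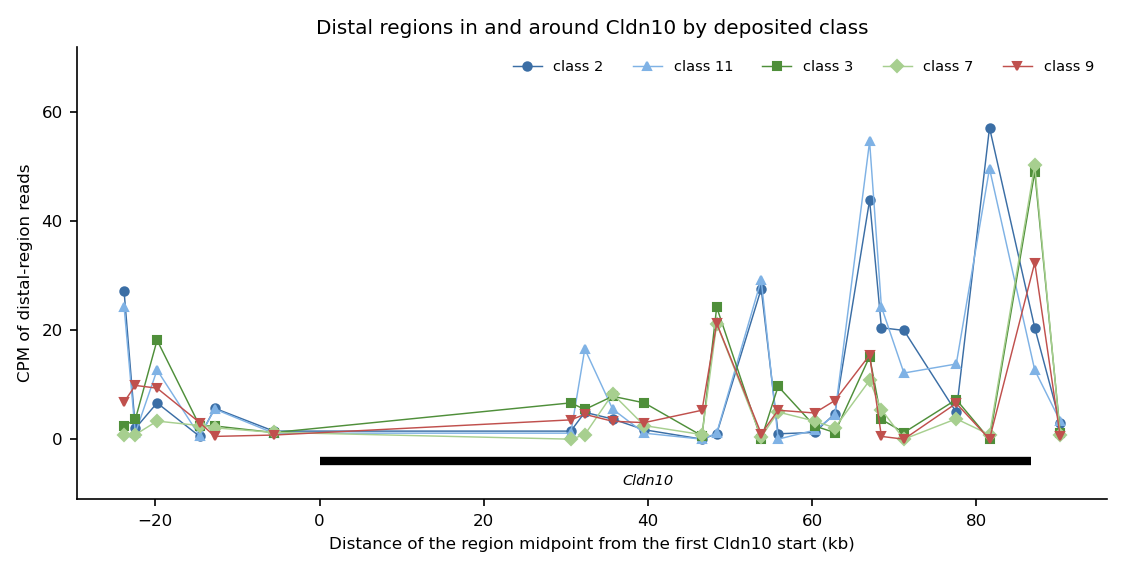
CPM of each distal region in and around Cldn10 against the distance of its midpoint from the first start in kb, for classes 2 and 11 (mature luminal markers), 3 and 7 (luminal progenitor markers) and 9 (fetal). Toward the far end of the gene classes 2 and 11 reach 57.2 and 49.7 CPM while classes 3 and 9 are at 0, and near the middle classes 3, 7 and 9 lie above classes 2 and 11 at the region where class 3 gives 24.2 CPM.

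Over the 14 classes the gene-span levels of several claudins ran in parallel. Cldn3 correlated with Cldn8 at Pearson's r = 0.917 and with Cldn4 at 0.91, and Cldn6 with Cldn9 at 0.94, where the overlapping spans share reads. Cldn1 was the member least like the rest of this group, with r = 0.0574 to Cldn7 and -0.27 to Cldn10. Among 10175 genes compared by log2(CPM + 2) over the 14 classes, the gene most like Cldn3 was Grb7 (r = 0.958) and the gene most like Cldn8 was Rab17 (r = 0.978). Epcam, the surface protein used for the sort, was second for Cldn4 (r = 0.953), and Mien1 was first for Cldn7 (r = 0.979). Sigirr was first for Cldn23 (r = 0.963), Avil for Cldn10 (r = 0.932), Smoc1 for Cldn1 (r = 0.875), BC016579 for Cldn9 (r = 0.862) and Srcin1 for Cldn6 (r = 0.861). The points of each correlation are 14 classes of the same libraries.

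The stage comparison was repeated within nuclei carrying luminal markers, fetal class 9 against adult classes 3 and 7. Class and stage coincide here and cannot be told apart. By edgeR 1 of the 7 tested claudins was called, Cldn23, lower in fetal nuclei, where 15.8% of 17376 genes were called, 7.75% as higher and 8.05% as lower. Cldn23 gave 63.1 and 53.9 CPM in fetal sums and 87.4 and 79.7 CPM in adult sums, with a log2 difference of -0.53 (SE 0.16, adjusted p = 0.025). The call was lost with DESeq2 (0.118), without fetal replicate 2 (0.235) and without adult replicate 1 (0.127). The summed luminal markers were also lower in class 9, at 423 CPM against 517 in class 3 and 598 in class 7, as were the luminal progenitor markers, at 480 against 614 and 644. The summed basal markers stood at 329 CPM against 320 and 202, and the stromal markers at 152 against 138 and 110. Their part in the result was not tested. Cldn10, called in whole libraries, had a log2 difference of -0.02 (adjusted p = 0.937) in these nuclei, at 82.1 and 88.6 CPM against 93.8 and 80.7 CPM.

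Besides Cldn23, Cldn1 and Cldn4 did not overlap between the stages in these nuclei, and neither passed the threshold. Of all genes 56.9% did not overlap, 28.1% with fetal above and 28.8% with fetal below. Cldn1 was lower in fetal class 9, at 36.5 and 63.2 CPM against 74.0 and 74.9 CPM (log2 difference -0.52, adjusted p = 0.0698 by edgeR), and without fetal replicate 2 the log2 difference was -1.02 (0.00964). Cldn4 was higher, at 97.4 and 91.8 CPM against 79.0 and 65.5 CPM (log2 difference 0.38, adjusted p = 0.0858), and was called with 10000 bases added to the span (log2 difference 0.55, adjusted p = 0.00418). Cldn3, Cldn7 and Cldn8 overlapped, with adjusted p-values of 0.866, 0.677 and 0.892. Cldn9 gave 66.7 and 51.5 CPM against 24.8 and 19.3 CPM, and Cldn6 gave 105 and 75.0 CPM against 40.9 and 31.3 CPM, as values with no test.

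In nuclei with basal markers, fetal class 4 was set against adult classes 1 and 8. By edgeR 1 of the 7 was called, Cldn4, higher in fetal nuclei, where 6.16% of 16476 genes were called, 2.98% as higher and 3.18% as lower. Cldn4 gave 50.9 and 39.7 CPM in fetal sums and 21.7 and 17.2 CPM in adult sums, with a log2 difference of 1.21 (SE 0.35, adjusted p = 0.0265). The call was lost without fetal replicate 1 (adjusted p = 0.135), fetal replicate 2 (0.0515), adult replicate 1 (0.0518) and adult replicate 2 (0.2). With no bases added to the span the log2 difference was 2.05 and with 10000 added 0.55, and neither was called (0.0972 and 0.216). DESeq2 gave no adjusted p for 5 of the 7 genes here, Cldn4 among them. The summed basal markers were lower in class 4, at 568 CPM against 1210 in class 1 and 1082 in class 8. The summed luminal markers were higher, at 228 CPM against 156 in class 1 and 137 in class 8, with 0 of 4 raised in class 4. One of those 4 is Epcam, the protein of the sort, at 127 and 131 CPM in fetal sums against 56.7 and 51.0 CPM in adult sums. The epidermal list had 4 of 6 raised in class 4 and summed to 98.6 CPM against 73.9 and 92.2, and the immune list had 3 of 4 raised and summed to 63.7 CPM against 33.2 and 61.1. The stromal sums were 189 CPM against 155 and 169, and the luminal progenitor sums 372 CPM against 304 and 299. Their part in the result was not tested.

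Cldn7 and Cldn1 lay in the same direction in these nuclei without passing the threshold. Cldn7 gave 22.6 and 17.8 CPM against 6.67 and 6.34 CPM (log2 difference 1.60, adjusted p = 0.0903 by edgeR), and was called with fetal classes 4 and 12 together (1.84, adjusted p = 0.00935). Cldn1 gave 22.6 and 41.5 CPM against 12.5 and 19.7 CPM (log2 difference 1.02, adjusted p = 0.113), and without fetal replicate 1 its adjusted p was 0.0495. For the 7 claudins the median log2 difference was 0.80, beside 0.00 for all genes. Over gene spans Cldn6 and Cldn9 overlapped between the stages here, with log2 differences of 0.10 and -0.09, and were not tested. Single 500-base bins, also not tested, went both ways in RPM. At the Cldn9 promoter, the bins at 0 and 500 from the higher-coordinate end of Cldn9 gave 2.92 and 4.37 in class 4. Class 1 gave 0 and 0 there, and class 8 gave 0.364 and 0. Inside Cldn6, in both padded spans, the bin at -3000 gave 2.92 in class 4, 17.0 in class 1 and 7.27 in class 8. Cldn1, Cldn4 and Cldn7 lay above in both fetal sums and Cldn10 below, where 49.3% of all genes did not overlap, 24.7% with fetal above and 24.7% with fetal below.

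The reference held 35 claudin genes, the 9 members included, and a fixed list of 18 others was used, which does not cover all the rest. Over gene spans edgeR called 4 of the 18 higher and 0 lower in fetal libraries, beside 11.3% and 10.9% of all genes. The alternative, DESeq2, called 4 and 0, beside 1550 and 1569 of 18808 genes. Cldn19, which pairs with Cldn16 in the kidney, gave 10.5 and 8.03 CPM in fetal and 0.948 and 2.25 CPM in adult libraries (log2 difference 2.47, adjusted p = 0.00225), and its call was lost with no bases added to the span (log2 difference 1.85, adjusted p = 0.0626). Cldn24 gave 8.59 and 6.75 CPM against 1.71 and 1.83 CPM (log2 difference 2.09, adjusted p = 0.00412), and its padded span shares reads with Cldn22, which was also called. The remaining call was Cldn11. In class 9 against classes 3 and 7, 4 of 12 tested were called higher by edgeR, beside 7.75% of all genes. DESeq2 called 0 of them higher, beside 711 of 17376 genes. There Cldn19 gave 11.7 and 7.78 CPM against 0 and 2.09 CPM (log2 difference 3.11, adjusted p = 0.00789 by edgeR), from 26 and 39 fetal reads and 0 and 8 adult reads. With 10000 bases added, the log2 difference of Cldn19 fell to 0.66 and the call was lost (0.0653), as it was with DESeq2 (0.346). Cldn18, with a log2 difference of 2.23 (adjusted p = 0.0298), lost its call with DESeq2 (0.0732) and without fetal replicate 1 (0.115), fetal replicate 2 (0.106) or adult replicate 1 (0.198). Its reads were 19 and 35 against 2 and 10, so both Cldn18 and Cldn19 reached the minimum of 10 reads in these nuclei through the fetal sums alone. The 4 calls became 1 without either fetal replicate or adult replicate 1, and 2 without adult replicate 2. In class 4 against classes 1 and 8 no other claudin of 8 tested was called by edgeR, beside 2.98% of all genes called higher and 3.18% lower, and 3 had an unadjusted p under 0.05. An adjusted p from DESeq2 existed for 1 of the 8, which was not called. Without fetal replicate 2 or adult replicate 2, 1 was called higher.

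Among 30 genes for tight junction partners, 3 were higher and 6 lower in fetal libraries over gene spans by edgeR, beside 11.3% and 10.9% of all genes. The alternative, DESeq2, called 2 and 6, beside 1550 and 1569 of 18808 genes. Ildr1, a protein of tricellular junctions, fell most, from 89.3 and 95.4 CPM in adult to 46.4 and 39.7 CPM in fetal libraries (log2 difference -1.12, adjusted p = 7.56e-05). Cgn, the cytoplasmic plaque protein cingulin, followed with 79.7 and 77.9 CPM against 137 and 125 CPM (log2 difference -0.73, adjusted p = 0.000585). Ybx3, a junction-associated DNA and RNA binding protein, had a log2 difference of -0.65 (adjusted p = 0.00276). Pard3, a scaffold of cell polarity, rose most, from 362 and 341 CPM to 556 and 606 CPM (log2 difference 0.73, adjusted p = 8.94e-05). Jam2 and Prkcz followed with log2 differences of 0.57 (adjusted p = 0.0373) and 0.41 (adjusted p = 0.0153). Without fetal replicate 2 the calls of Jam2 (0.232) and Prkcz (0.0894) were lost, as were that of Prkcz without fetal replicate 1 (0.134) and that of Jam2 without adult replicate 1 (0.165). The Jam2 call was also lost with DESeq2 (0.0545), with every barcode (0.0555) and with no bases added (0.0647), and with 10000 bases added its sign changed. The 3 called higher became 1 without fetal replicate 2 and 5 without adult replicate 2.

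Within classes, partners were called in both directions. Of the 30, 7 were lower and 1 higher in class 9 against classes 3 and 7 by edgeR, beside 8.05% and 7.75% of all genes. DESeq2 called 5 lower and 1 higher, beside 757 and 711 of 17376 genes. In class 9 against classes 3 and 7, Ildr1, Cgnl1 and Ybx3 led 7 called lower, with log2 differences of -0.93, -0.89 and -0.81, and Pard3 was the 1 called higher, at 0.47 (adjusted p = 0.00139 by edgeR), against 3 without adult replicate 2. In class 4 against classes 1 and 8, 3 were called higher and 3 lower, beside 2.98% and 3.18% of all genes. DESeq2 called 2 higher and 1 lower there, beside 120 and 202 of 16476 genes, and gave no adjusted p for 5 of the 30. Epcam, the surface protein of the sort, rose by 1.27 on the log2 scale (adjusted p = 0.000332), and Pard6g fell by 1.08 (adjusted p = 7.77e-05). Pard3 was called at 0.61 and Prkcz at 0.69, while Ildr1 and Ybx3 fell by 1.16 and 0.94. Of these 6, the calls of Ildr1, Ybx3, Pard3 and Prkcz were each lost without adult replicate 2, with adjusted p-values of 0.167, 0.206, 0.0697 and 0.33. Without fetal replicate 1 the calls of Ybx3 (0.183), Pard3 (0.0713) and Prkcz (0.229) were lost, and without fetal replicate 2 those of Ildr1 (0.154) and Prkcz (0.0824).

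The deposited co-accessibility table, by its name from Cicero, scores pairs of regions by how their accessibility varies together over groups of similar nuclei. It pools both stages and has no replicate, and a score does not show that a pair was open in the same nucleus. Of all 12719512 listed lines, 2.63% scored at least 0.1. The promoters of Cldn3 and Cldn4 scored 0.539 with each other, and the region between them at chr5:134966357-134967356 scored 0.596 with Cldn3 and 0.53 with Cldn4. The Cldn3 promoter had 40 partners at 0.1 or more and Cldn4 had 38, against 32 for Cldn7, 13 for Cldn9, 10 for Cldn1, 4 each for Cldn6 and Cldn8 and 3 for Cldn23. The number of listed pairs differed between promoters, from 30 for Cldn8 to 130 for Cldn7.

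The Cldn9 promoter scored highest with a region between genes 192371 bases away, chr17:23876351-23877350, at 0.573. That region gave 82.1 and 73.8 CPM in fetal and 5.65 and 4.58 CPM in adult libraries. The distal region at chr17:23697921-23698920 scored 0.548 with Cldn9, and the Cldn6 and Cldn9 promoters, 4981 bases apart, scored 0.245. Promoter-list regions of Zscan10, Prss33 and Kremen2 were among the partners of Cldn9, at scores of 0.156, 0.205 and 0.104. Of the 13 partners of Cldn9 at 0.1 or more, 12 lay above in both fetal libraries and 1, at Paqr4, overlapped. All 4 partners of Cldn8 and all 3 of Cldn23 lay below in both fetal libraries. The partners of the other promoters were mixed, with 11 above, 17 below and 12 overlapping for Cldn3, 9, 19 and 10 for Cldn4, 6, 13 and 13 for Cldn7, and 2, 2 and 6 for Cldn1. The 4 partners of Cldn6 had 3 above and 1 overlapping. Over all regions tested, 33.2% of distal and 29.4% of promoter regions lay above and 35.2% and 30.3% below. These counts are not tested, since the scores come from the same nuclei and the partners were examined after their values were known.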

How the data were processed

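Single-nucleus ATAC-seq reads of 4 libraries, 2 per stage, were taken as deposited read positions with a barcode each, together with the authors' lists of nuclei, promoter regions and distal regions. Per the submitters' processing notes Bowtie2, MACS2, bedtools and mm10 were used, with no versions given; the roles of the tools were not given in the sources used here. The deposited table of classes gives a count of reads per nucleus, which equalled the reads carrying that barcode in all 7846 nuclei. The authors deposited co-accessibility as a score per pair of regions. Another deposited table, of gene scores, was not used, because its columns named no sample. No doublet caller was run.

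Reads of listed barcodes were counted over gene spans with 2000 bases added, promoter regions and distal regions, and summed per library. Gene names and starts came from RefSeq (GRCm38.p6). Each kind of feature was tested with edgeR 4.0.16 in R 4.3.3 (quasi-likelihood, TMM, Benjamini-Hochberg over all features with a mean of at least 10 reads), and DESeq2 1.42.0 was an alternative. The tests were tried on simulated data with known changes. A value called SE is the absolute log2 change over the square root of F, not an SE of the fit. Class levels are plain CPM with exact Poisson 95% intervals. Counting and plots were made with pandas 2.3.3, numpy 2.4.6, matplotlib 3.10.9 and scipy 1.17.1 under Python 3.11.15. The genes, lists, markers and tests were chosen with earlier results of these data known. All 9 claudins are named whatever their values; of other claudins the 2, and of junction partners the 3, largest called changes in each direction are named, and for each claudin the 2 genes most alike were ranked. Cldn11 and Cldn22 complete a count. Distal regions were named after their values were seen.

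Reads that lie in overlapping spans were counted for each gene, and no strand applies to these reads.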

Additional observations from a re-analysis of the deposited data

Results flagged for a closer look

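Cldn1 moved in opposite directions in the 2 comparisons made within classes. In fetal class 9 against adult classes 3 and 7 the log2 difference of the gene span was -0.523, with both fetal sums (36.5 and 63.2 CPM) below both adult sums (74.0 and 74.9 CPM). In fetal class 4 against adult classes 1 and 8 it was 1.02, with both fetal sums (22.6 and 41.5 CPM) above both adult sums (12.5 and 19.7 CPM). Neither difference passed edgeR's threshold on its own, with adjusted p-values of 0.0698 and 0.113. The first passed without fetal replicate 2 (log2 difference -1.02, adjusted p = 0.00964), with no filter (0.0188), with a replicate block (0.00467) and with fetal classes 5 and 9 (0.00399). The second passed without fetal replicate 1 (0.0495). The difference between the 2 comparisons was not tested.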

How the results depend on the processing

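The promoter counts of 0 higher and 0 lower kept that value in every alternative run. The number of tested claudins called lower over gene spans, 1 as reported, was 2 with no filter, 2 with every barcode, 3 with no bases added to the span and 3 with a replicate block, and 0 to 2 when 1 library was left out. With the replicate block the added calls were Cldn8 (adjusted p = 0.00812 by edgeR) and Cldn23 (0.0222). Over all 18808 genes that block raised the calls from 2122 to 3280 higher and from 2052 to 3141 lower. Among nearby distal regions, 7 called higher became 1 with DESeq2, 4 with a mean of at least 50 reads and 3 to 6 when 1 library was left out; 18 called lower became 8 with a mean of at least 50 reads. With that read minimum 28608 distal regions were tested in place of 122865, and 7219 were called higher and 8082 lower. No called region near the claudins lost its call there while still tested. The missing calls belong to regions under that minimum, and chr5:134989325-134990324 gained a call as higher (adjusted p = 0.0423 by edgeR). For class 9 against classes 3 and 7, the 1 called lower became 0 with DESeq2, 2 with no filter, 2 with a replicate block, 2 with fetal classes 5 and 9, and 0 to 1 with 1 library left out. There the 0 called higher became 1 with a replicate block and 1 with 10000 bases added, each time Cldn4 (adjusted p = 0.031 and 0.00418 by edgeR). Over all 17376 genes of that comparison the block raised the calls from 1346 to 1844 higher and from 1399 to 1974 lower. For class 4 against classes 1 and 8, the 1 called higher became 0 with DESeq2, which gave no adjusted p for 5 of the 7 genes, 0 with a mean of at least 50 reads, where 2 of the 7 were tested and Cldn4 was not, 0 with no bases or 10000 bases added, 2 with fetal classes 4 and 12, Cldn7 added, and 0 to 1 with 1 library left out. Jam2 in the stage comparison changed sign with 10000 bases added, to -0.0514. The cause was not tested.

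Equal replicate numbers are not said to share a litter or batch. The correlation of replicate differences between the stages was 0.257 over gene spans, 0.0571 at promoters and 0.0399 at distal regions. Over gene spans it was 0.113 for class 9 against classes 3 and 7 and 0.0827 for class 4 against classes 1 and 8. Among values of single genes, regions and lists, 1582 kept their call, stayed uncalled or kept a like count. Of the rest, 87 lost their call, 26 gained one, 32 counts moved and 1 reversed. The sign of values that stayed uncalled was not checked. For the counts of called claudin features themselves, 110 stayed alike and 28 moved. A setting that leaves out 1 library keeps a single library in an arm, which is then assumed to vary like the others. With 4 libraries the fit had few degrees of freedom, and small promoter and distal counts limit precision.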
